A study of Mus musculus with 2 samples.

Results

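The genes described here encode the ADAM proteases, the ADAMTS proteases with their ADAMTS-like relatives, and the TIMPs that inhibit them. They were chosen by symbol, with 1 probeset for each gene, and number 60 of the 22180 genes named on the array: 33 ADAM genes, 18 ADAMTS genes, 5 ADAMTS-like genes and 4 TIMP genes. The RNA came from subepithelial myofibroblasts, contractile stromal cells of the gut wall, isolated from small bowel of BALB/c mice of wild-type genotype. The non-stimulated group was cultured for 1 day without homogenate, and the stimulated group for 1 day with 5 mg/ml of a homogenate of intestinal eosinophils. The comparison asks which transcripts of the stromal cells differ after contact with eosinophil material. In each group the RNA of 3 cultures was pooled and put on 1 array of the GeneChip Mouse Gene 2.0 ST type, which reads a transcript with probes along its exons. Each value therefore has no replicate error, no test between the groups is possible, and a difference describes these 2 pools only. The deposited values are on a log2 scale, a difference is stimulated minus non-stimulated, and a fold is 2 to the power of its size.

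ADAMs are membrane-anchored metalloproteases that cut the outer part of other membrane proteins, a step called shedding, and so release growth factors, cytokines and receptors from the cell surface. ADAMTS enzymes are secreted, carry thrombospondin repeats and act on the extracellular matrix, where they cleave proteoglycans, trim procollagens or act around fibrillin microfibrils. ADAMTS-like proteins share those repeats and lack the protease domain. TIMPs are small secreted proteins that block matrix metalloproteinases and some ADAM and ADAMTS enzymes, and stromal cells of the gut are a source of both enzymes and inhibitors.

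The arrays held the transcripts of myofibroblasts. All 11 myofibroblast markers were above background, with Vim (vimentin) at 13.10 without and 13.16 with homogenate and Acta2 (smooth muscle actin) at 13.07 and 12.78. Paired values are given in that order throughout. A gene counts as above background where it passes, on at least 1 array, the level under which 95% of 1405 receptor probesets for smell and pheromones lie (5.58 and 5.57), and 14065 genes did so. One label field names eosinophils as the source of the samples, but none of 6 measured eosinophil markers was above background (range 3.12 to 5.43 and 2.91 to 5.25), with the defining granule gene Epx at 4.73 and 5.25. Above background were 3 of 7 macrophage markers, 1 of 6 lymphocyte markers, 4 of 7 epithelial markers, 3 of 5 endothelial markers and 4 of 5 neuronal and glial markers. Of the neuronal and glial markers, Uchl1 read 8.62 and 8.51, Sox10 8.22 and 8.05, and Tubb3 8.11 and 8.24. The highest macrophage, epithelial and endothelial values were 6.57 and 6.81, 6.45 and 6.23, and 6.24 and 6.33. In pooled RNA, fewer cells of a type and less RNA per cell cannot be told apart.

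Of the 60 genes, 32 were above background, 29 of them on both arrays, and no gene of the 4 families differed by 1.5-fold. Past 1.5-fold higher were 0 of the 32, where 0.796% of all genes above background were, and past 1.5-fold lower were 0 of the 32, where 0.64% were. Likewise 0 were past 2-fold higher or lower, as 0.192% and 0.0427% of all genes were. At a smaller step, a log2 difference of 0.32 or more, Adamts4, Adamts7 and Adam17 were higher (3.77% of all genes) and Adamts5 and Adamts1 were lower (4.31% of all genes). These 5 are 15.6% of the 32 and all were above background on both arrays, beside 8.08% of all genes either way. The lowest of the 5 in size was Adamts1 at -0.35, and the next gene, Adamts8, lay outside at 0.26. In sign, 12 of the 32 were higher (50.2% of all genes) and 20 lower (48.2% of all genes). Adam1a and Adam33 passed the filter only without homogenate, which fixes their lower sign. Adamts8 passed it only with homogenate, which favours a higher one. Of the 29 above background on both arrays, 11 were higher. The median difference of the 32 was -0.03, against 0.00 over all genes, and 13 of the 32 (40.6%) differed by less than 0.1, against 50.3% of all genes.

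**Figure D1:**
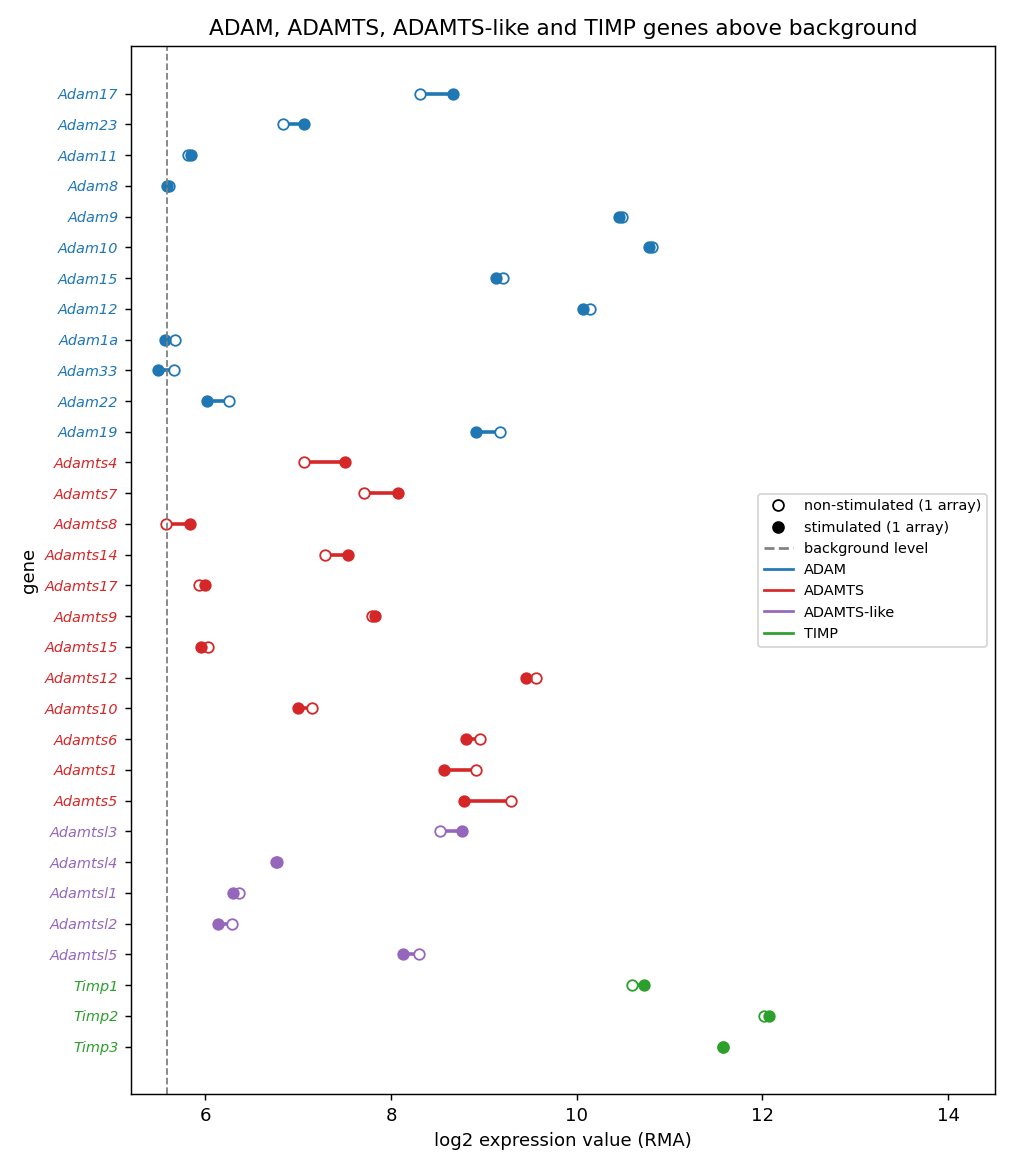
Log2 expression values of the 32 genes above background, 1 row a gene, with an open point for the non-stimulated and a filled point for the stimulated array (1 array each, so no error bars). The dashed line is the background level. Most pairs of points nearly touch, and the longest lines belong to Adamts5 (9.29 and 8.78) and Adamts4 (7.06 and 7.50). Levels of different genes come from different probes and are not comparable with each other.

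Among the membrane sheddases, Adam17 was higher on the stimulated array and the others lay near 0 or below it. Adam17, the enzyme that releases tumour necrosis factor and several ligands of the epidermal growth factor receptor, read 8.31 without and 8.66 with homogenate. That is a difference of 0.35 or 1.27-fold, a size that 6.63% of all genes above background reached, and 3.50% of the genes in the same of 4 equal sets by mean signal. Adam10, the sheddase of Notch receptors and cadherins and the closest relative of Adam17, read 10.81 and 10.77 and so differed by -0.04. Adam9 read 10.49 and 10.45, a difference of -0.03, and Adam15 read 9.20 and 9.13, a difference of -0.07. The meltrins, named for their part in muscle cell fusion, were lower by different amounts. Adam12 (meltrin alpha) read 10.15 and 10.07, and Adam19 (meltrin beta), which sheds neuregulin, read 9.17 and 8.91, which is 1.20-fold lower. A second Adam19 probeset, with weaker signal, gave 6.08 and 5.84, a difference of -0.24 beside -0.26. The second Adam15 probeset read lower as well, by -0.18, so that the mean of its probesets gave -0.12. The leukocyte sheddase Adam8 read 5.61 and 5.59, just above background. Adam33, a gene of mesenchymal cells linked to asthma, read 5.67 and 5.49, and since the second value is under background its fold is at least 1.07-fold lower. Adam28, known from lymphocytes and epididymis, was under background on both arrays at 4.05 and 4.42. Of the 8 sheddases above background 7 were lower (48.2% of all genes) and 1 was higher (50.2% of all genes), and the median was -0.05. Adam33, counted among the 7, passed the filter only without homogenate, so its sign follows from the filter. Of the 8, 5 differed by less than 0.1, as 50.3% of all genes did, so most of these signs belong to values near 0.

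The promoter sequences of Adam17 and Adamts1 are shown because these are the genes past a difference of 0.32, 1 in each direction, that have an entry in the RefSeq promoter table. The table, on build GRCm38.p6, held 36 promoters of 34 of the 60 genes. Each line gives the 250 bases before the annotated start, 5′ to 3′, with CpG dinucleotides in capitals.
Adam17 (chr12:21373633-21373882, minus strand): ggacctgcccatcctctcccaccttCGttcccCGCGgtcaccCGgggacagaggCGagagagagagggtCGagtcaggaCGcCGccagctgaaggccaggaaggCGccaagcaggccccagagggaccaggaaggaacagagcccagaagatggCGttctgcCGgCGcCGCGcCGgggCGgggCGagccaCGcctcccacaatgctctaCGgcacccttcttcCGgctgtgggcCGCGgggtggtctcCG
Adamts1 (chr16:85803114-85803363, minus strand): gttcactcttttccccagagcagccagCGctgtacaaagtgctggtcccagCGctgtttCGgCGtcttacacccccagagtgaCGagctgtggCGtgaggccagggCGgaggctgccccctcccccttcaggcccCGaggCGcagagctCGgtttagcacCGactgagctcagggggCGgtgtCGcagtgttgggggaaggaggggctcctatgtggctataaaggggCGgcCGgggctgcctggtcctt
Both promoters are rich in G and C, at 70.4% for Adam17 and 65.6% for Adamts1, with 23 and 15 CpG dinucleotides in the window, where the median of all 32851 promoters in the table is 52.4% and 6. The 22 promoters of the genes above background had medians of 65% and 17. An AP-1 motif, TGANTCA on either strand, was in neither sequence shown, in 4 of the 36 promoters (11.1%) and in 6.75% of all promoters. Of the 22 promoters of genes above background, 1 held it (4.55%). An NF-kB motif, GGG followed by any 2 bases and TTTCC on either strand, was in 0 of the 36 and in 1.41% of all promoters. These letters are a description of the window and say nothing about binding.

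Adam11, Adam22 and Adam23 are adhesion proteins without a working protease site, best known from neurons, where Adam22 and Adam23 bind secreted LGI proteins at the synapse. Adam23 read 6.84 and 7.06, higher by 0.22, and Adam22 read 6.25 and 6.02, lower by a nearly equal size (-0.23). Adam11 read 5.81 and 5.85. The 4 neuronal and glial markers above background ran from -0.30 for S100b (7.17 and 6.87) to 0.13 for Tubb3 (8.11 and 8.24), and the summed log2 level of all 5 measured was 36.4 and 35.8, with Elavl4 under background. Their part in these values was not tested.

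The other 21 ADAM genes, most of them known from testis and epididymis, were almost all under background. Only Adam1a, which encodes a subunit of the sperm protein fertilin, was above background, at 5.67 and 5.56, and only without homogenate. The remaining 20, Adam1b, Adam2, Adam3, Adam4, Adam5, Adam6a, Adam6b, Adam7, Adam18, Adam20, Adam21, Adam24, Adam25, Adam26a, Adam26b, Adam29, Adam30, Adam32, Adam34l and Adam39, read 2.11 to 5.53 without and 1.82 to 5.41 with homogenate. No difference can be read from values under background. Many of these genes are recent copies of each other, so that a probeset may also read a near-identical neighbour. By RefSeq, 14 of the 60 genes lie on chromosome 8, where Adam9 was the only 1 of the 14 above background, next to Adam32 at 4.18 and 3.97.

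The proteoglycan-cleaving ADAMTS genes held the furthest values of the 60 in both directions. Adamts5, an aggrecanase that also cleaves versican, read 9.29 without and 8.78 with homogenate, a difference of -0.51 or 1.42-fold lower. A size like it was reached by 2.20% of all genes above background and by 1.28% of those in the same of 4 equal sets by mean signal. Adamts4, the other main aggrecanase, went the opposite way, with 7.06 and 7.50, a difference of 0.44 or 1.36-fold higher, reached by 3.49% of all genes. Adamts1, which cleaves versican and lies next to Adamts5 on chromosome 16, read 8.92 and 8.57, a difference of -0.35 or 1.27-fold lower, reached by 6.64% of all genes. The genes that encode the same kind of enzyme differed in direction on these 2 arrays. The neighbours Adamts1 and Adamts5 had the same sign, while Adamts15 and Adamts8, neighbours on chromosome 9, had opposite signs (-0.07 and 0.26).

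The rest of that group differed less or was too dim to judge. Adamts9, a versicanase of developing tissue, read 7.79 and 7.83. Adamts15 read 6.02 and 5.95, and Adamts8, its neighbour on chromosome 9, read 5.57 and 5.84. The first Adamts8 value was under background, which leaves a bound of at least 1.19-fold higher, and its second probeset was under background on both arrays, at 5.49 and 5.47. Adamts20, known from pigment cell development, was under background at 5.00 and 4.84. The 6 genes above background split into 3 higher and 3 lower (median -0.02), and 3 of the 6 passed a size of 0.32, beside 8.08% of all genes. The 3 higher genes include Adamts8, which passed the background filter only with homogenate. The 11 myofibroblast markers had a median difference of -0.04 and a summed log2 level of 120.5 and 119.1. Their contractile members were lower, with Acta2 at -0.28, Tagln at -0.41, Myh11 at -0.53 and Des at -0.62, and Thy1 was at -0.15. Pdgfra, a receptor of stromal cells, was higher by 0.56, and Vim, Pdgfrb, Col1a1, Col1a2 and Col3a1 lay between -0.04 and 0.07. The part of these markers in the lower values of Adamts1 and Adamts5 was not tested.

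**Figure D2:**
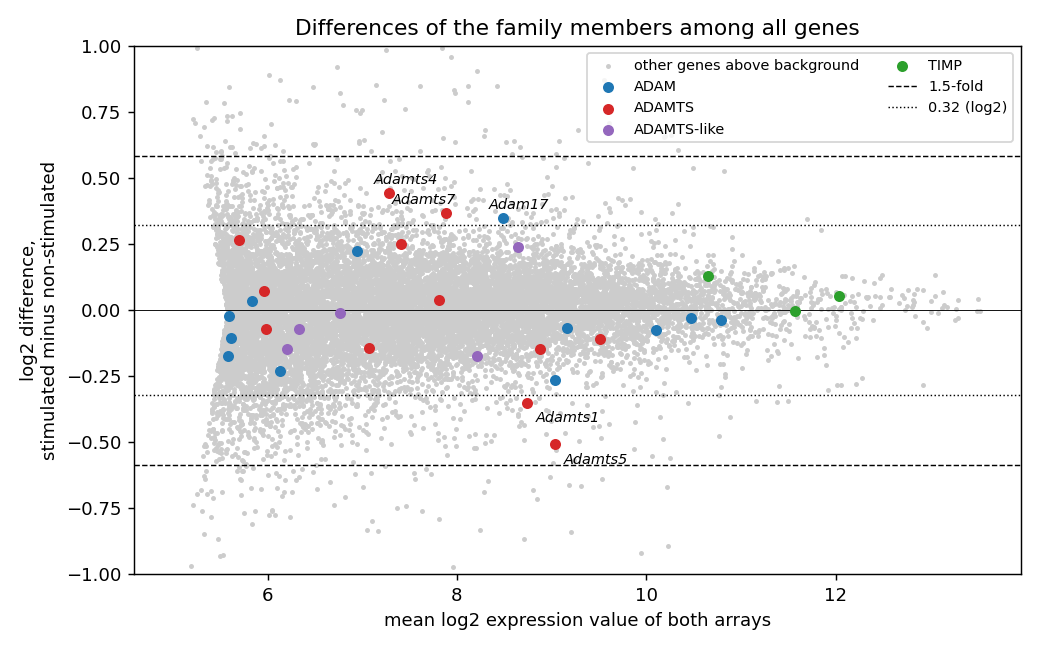
Log2 difference against the mean log2 value of both arrays for all genes above background (grey) and for the 32 family members (coloured by family), with dotted lines at a size of 0.32 and dashed lines at 1.5-fold. The 5 labelled genes lie between these lines, with Adamts4 at 0.44 and Adamts5 at -0.51 outermost. The axis ends at 1, and 33 other genes lie beyond it.

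Enzymes that act on cartilage oligomeric matrix protein differed from each other. Adamts7, which also promotes migration of vascular smooth muscle cells, read 7.70 and 8.07, a difference of 0.37 or 1.29-fold higher, reached by 5.84% of all genes. Adamts12, its closest relative, read 9.56 and 9.45, a difference of -0.11. Of the procollagen-processing enzymes, which remove the amino-terminal propeptide before fibrils form, Adamts14 read 7.28 and 7.53, a difference of 0.25. Its second probeset was under background and read 5.53 on both arrays, so the mean of the probesets gave 0.13. Adamts3 was under background at 4.44 and 4.63. Adamts2 is not among the 60 genes, so Adamts14 and Adamts3 are the only enzymes of this kind with a value here.

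Adamts6 and Adamts10, related enzymes that act at fibrillin microfibrils, were lower by the same small amount. Adamts6 read 8.95 and 8.80 and Adamts10 read 7.14 and 7.00, both a difference of -0.15. Adamts17, which like Adamts10 is linked to short stature with lens defects, read 5.93 and 6.00. Adamts13, the enzyme that trims von Willebrand factor and is made mainly in liver, was under background at 5.21 and 5.15. Adamts16, Adamts18 and Adamts19, whose substrates are little known, were under it as well, at 5.12 and 4.87, 4.76 and 4.61, and 5.01 and 4.77.

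All 5 ADAMTS-like genes were above background on both arrays. Adamtsl3 (punctin-2) was higher, at 8.53 and 8.77, a difference of 0.24 that 15.7% of all genes reached. Adamtsl5, which binds fibrillin, read 8.30 and 8.13, a difference of -0.17. Adamtsl2, which binds fibrillin and a carrier of latent transforming growth factor beta, read 6.28 and 6.14. Adamtsl1 (punctin) read 6.36 and 6.29. Adamtsl4, a fibrillin-binding protein of the lens suspension, read 6.77 and 6.76, and its difference of -0.01 changed sign, to 0.00044, when a trend over expression was removed. The group held 4 lower genes (48.2% of all genes) and 1 higher gene (50.2% of all genes), with a median of -0.07.

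The inhibitors differed little between the arrays. Timp2, which blocks matrix metalloproteinases and also helps to activate one of them at the cell surface, read 12.01 and 12.07, a difference of 0.05. Timp3, which binds to matrix and is the main inhibitor of Adam17 and the aggrecanases, read 11.58 and 11.57, a difference of -0.01. Timp1, a secreted inhibitor that blocks Adam10 but hardly Adam17, was the most different of them at 0.13, or 1.09-fold higher, a size that 39.4% of all genes reached. Timp4, the most tissue-restricted of the family, was under background at 4.19 and 4.21.

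Genes that work with these proteases were described from lists of 105 related genes, of which 100 were measured and 83 were above background. Past 1.5-fold were 6 of the 83, all higher, beside 1.44% of all genes either way, and 19 were past a size of 0.32, beside 8.08% of all genes. Of the partners of Adam17 and Adam10, 5 of 8 were higher (50.2% of all genes), with a median of 0.02 and none past 1.5-fold. Rhbdf2, which encodes iRhom2, the protein that carries ADAM17 to the cell surface, read 6.60 and 6.95, a difference of 0.35, beside 0.35 for Adam17. Its relative Rhbdf1 (iRhom1), named after its values were seen, read 9.06 on both arrays. Frmd8, which stabilises the iRhom complex, differed by 0.10 and Tspan15, a tetraspanin that guides ADAM10, by -0.09. Tspan33, another such tetraspanin, read 5.72 and 5.34, the second value under background. Among the convertases that remove the propeptide of ADAMs, Furin differed by -0.02, Pcsk7 by 0.06 and Pcsk5 by 0.29. Of other inhibitors and clearance receptors, 3 of 5 were higher (50.2% of all genes) and none passed a size of 0.32. Reck, a membrane-anchored inhibitor, differed by -0.17, Sfrp1 by 0.09, Spock1 by 0.07 and Spock2 by -0.03.

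Substrates of ADAM10 and ADAM17 were higher for 22 of 33 genes (50.2% of all genes), with a median of 0.05, and 2 of them were past 1.5-fold higher (0.796% of all genes). These 2 were the chemokine Cxcl16, which is membrane-bound until shed, at 6.71 and 8.01 (2.45-fold higher), and the growth factor epiregulin, Ereg, at 8.94 and 9.62 (0.68). With the mean of its probesets, Ereg differed by 0.45 and was no longer past 1.5-fold. The receptor Met differed by 0.46 and the stem cell factor gene Kitl by -0.50. Tnfrsf1b, a receptor of tumour necrosis factor that ADAM17 sheds, differed by 0.38, the Notch ligand Jag1 by -0.42 and Notch3 by -0.27. In the same list Tnfrsf1a differed by 0.05, Notch1 by -0.07, Notch2 by 0.16 and the Notch ligand Dll1 by 0.28. Among other ligands of the list, Tnf (5.41 and 5.25) and Tgfa (5.37 and 5.36) were under background. Hbegf differed by -0.10 and Btc by 0.21. The genes from Tnfrsf1b to Btc were named after their values were seen.

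Substrates of ADAMTS enzymes were higher for 8 of 14 genes (50.2% of all genes), with a median of 0.00 and none past 1.5-fold. Vcan (versican), cleaved by ADAMTS1, ADAMTS4, ADAMTS5 and ADAMTS9, read 9.59 and 10.13, a difference of 0.54. The basement membrane gene Nid2 read 8.21 and 7.76, the brain proteoglycan gene Ncan 6.40 and 6.18, and the fibrillin gene Fbn2 8.57 and 8.37. Of the matrix metalloproteinases that TIMPs block, 11 of 17 were higher (50.2% of all genes) and 4 were past 1.5-fold higher (0.796% of all genes). These were Mmp3, Mmp9, Mmp13 and Mmp10, with differences of 2.27, 2.10, 1.71 and 1.22. The range of these metalloproteinases, -0.24 to 2.27, was wider than that of the 32 family members, -0.51 to 0.44. The median of the 17 was 0.03, beside -0.03 for the 32 members. Near relatives that the symbols leave out were Thsd4, an ADAMTS-like gene, at -0.33, Papln at 0.13, and Adamdec1, an ADAM-like gene of gut macrophages and stroma, at 5.42 and 5.69. The first Adamdec1 value was under background.

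**Figure D3:**
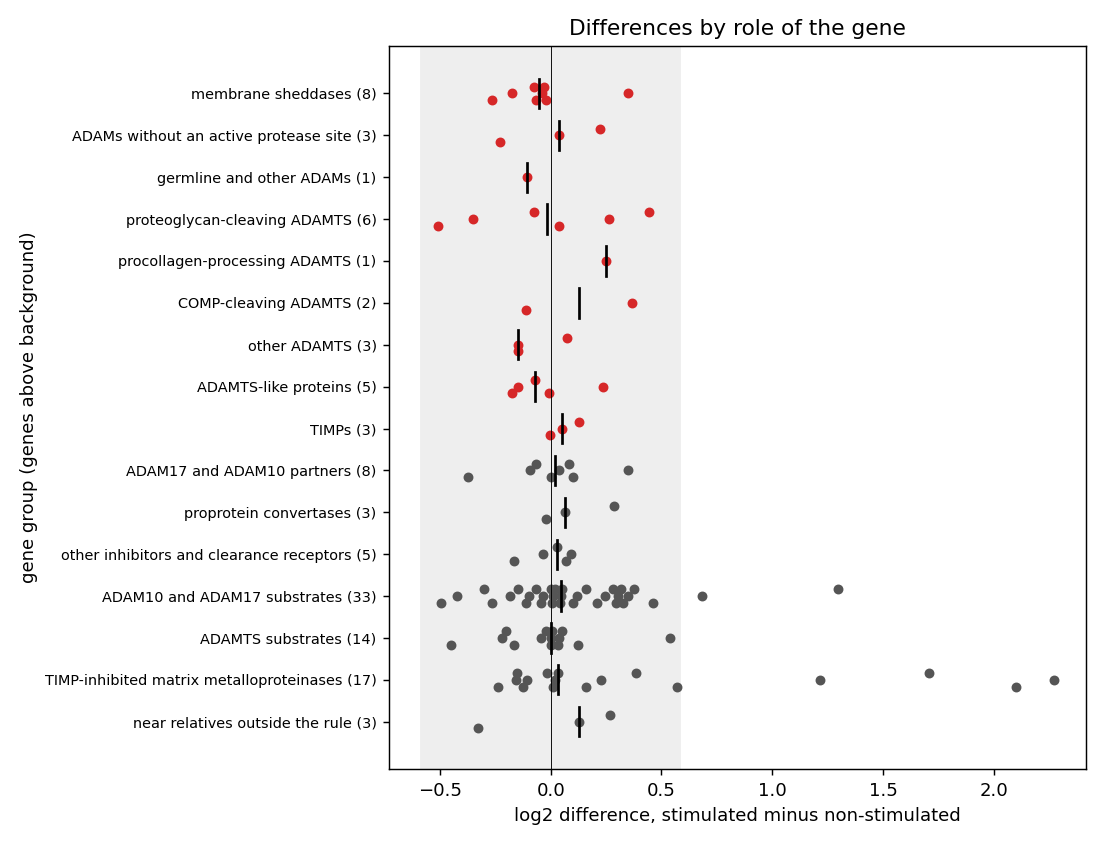
Log2 differences (stimulated minus non-stimulated) of genes above background, 1 point a gene, by role of the family members (red) and by list of related genes (grey), with the number of genes in brackets and a black bar at each median. The shaded band spans 1.5-fold either way. All red points lie inside the band, and 6 grey points lie outside it, 4 of them matrix metalloproteinases.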

How the data were processed

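RNA of 2 samples, each pooled from 3 cultures, was measured on 1 array each. The deposited values are log2 expression values of 41345 probesets. Affymetrix Expression Console and RMA were used, per the submitters' processing notes; for versions and genome build the label sources used say nothing. Put in order, the values of the arrays lie within 0.0757 of each other, as after quantile normalization, so any overall shift between arrays is removed and each difference is relative to all probesets. Probesets paired with 1 gene by the platform annotation (23521) were used, and those with several (1814) or none (16010) were left out. RefSeq (GRCm38.p6) held the gene identifiers of 23328. The probeset with the highest mean stood for a gene.

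The number of arrays limits precision, and with 1 a group no test was run. The call was a 1.5-fold difference, with a log2 size of 0.32 and 2-fold as alternatives. Every family member is named, and of each related list the genes past 1.5-fold and up to 4 with the largest differences. Related genes named beyond these are marked as named after their values were seen. Members and lists were chosen with earlier results of these data known. Python 3.11.15 with pandas 2.3.3 and statsmodels 0.14.6 was used. A simulation checked only that large added differences passed the fold thresholds, and did not cover the counts of family or related genes.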

Additional observations from a re-analysis of the deposited data

How the results depend on the processing

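The counts past 1.5-fold stayed at 0 in each direction without the background filter, with the filter at the 99th percentile or on both arrays, values raised to background, the mean of a gene's probesets, and centring on the median or on a lowess trend. They were 0 at a threshold of 2-fold too. The stricter filters and the 2-fold threshold can only remove genes, so these settings could not have raised a count of 0. At a log2 size of 0.32 the counts were 3 higher and 2 lower, with 19 related genes in place of 6. The related count was 5 with the mean of probesets, where Ereg lost its call at 0.45, 8 with no filter, which added Mmp1b and Mmp8 from under background, and 5 at 2-fold. With no filter, 21 of 60 members were higher, 9 of them from the 28 under background, in place of 12 of 32. The median difference of the members was -0.0451 with no filter, -0.0205 at the 99th percentile, which kept 22 members, -0.0357 centred on the median and -0.0475 centred on the trend, and their mean was -0.0090, beside -0.0342 as reported. Adamtsl4 was the only member above background to change sign, to 0.00044 under the trend. The 5 genes past 0.32 stayed past it under each of these settings, and Adamts5 ran from -0.53 to -0.51. Each of the 5 has 1 probeset and was above background on both arrays, so only centring could change its difference. The mean of probesets moved Adamts14 to 0.13 and Adamts8 to 0.12. Background set the limit for 28 members, whose differences could not be read. No paired analysis was possible because each group has 1 array.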

Other observations

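Adam18, Adam26a and Adam6b had exactly the same value on both arrays, at 4.37, 2.11 and 2.37. The same was seen for 676 of all named genes and for 1224 probesets. All 3 lie under background. Another 2 probesets are paired with a further ADAM gene together with a second gene, and they read 3.11 and 2.66, and 4.17 and 3.47, under background on both arrays.

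By RefSeq, 13 pairs of the 60 genes are direct neighbours among protein-coding genes. In 2 of these pairs both genes were above background. Adamts1 and Adamts5 differed by -0.35 and -0.51, while Adamts15 and Adamts8 differed by -0.07 and 0.26.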
